A study of Homo sapiens with 4 samples.

Results

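Control cells that carried the Flag-His tag without NKRF showed which RNAs came through the purification in the absence of a tagged RNA-binding protein. They made up 2 of the 4 libraries of the series: the tag-only UV library (Flag_UV) and the tag-only PAR library (Flag_PAR), taken by their labels, with all 9 RNA classes and all 7096 nt of mature rRNA and 6684 nt of spacer sequence of the 47S pre-rRNA in each. The host was HEK293, a line of human embryonic kidney origin, here in its Flp-In T-Rex form, in which an inserted construct is switched on by tetracycline. Induction lasted 24 h in all 4 cultures. UV cells were crosslinked at 254 nm, and PAR cells were given 100 μM 4-thiouridine for 6 h and crosslinked at 365 nm. NKRF, a G-patch protein placed by the series in ribosome production, was expressed with the same tag in the other two libraries (NKRF_UV and NKRF_PAR), which serve below as the comparison. With 1 library per group no difference has a replicate check, none was tested across samples, and crosslinking mode cannot be told apart from any other difference between the cultures. Identity of the cells was not checked against marker genes here, since only class totals and rDNA coverage were analysed.

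In CRAC (crosslinking and analysis of cDNA) RNA is fixed to protein in living cells, the tagged protein is purified natively on anti-FLAG beads and then under denaturing conditions on nickel resin, and the trimmed RNA is converted to cDNA and sequenced. Short-wave UV can fix any base to a nearby protein, with pyrimidines reacting most readily. Long-wave UV after feeding of 4-thiouridine acts on the uridines (T in cDNA) that the analogue has replaced, and therefore on RNA made during the feeding. The 47S pre-rRNA, made by RNA polymerase I in the nucleolus, is cut into 18S rRNA of the small ribosomal subunit and 5.8S and 28S rRNA of the large subunit. The external and internal transcribed spacers (5′ ETS, ITS1, ITS2 and 3′ ETS) around them are degraded. Mature rRNA is long-lived and makes up most of a cell's RNA, whereas spacer sequence is found only in precursors and their breakdown products. Background in such a purification is commonly rich in abundant RNA.

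The UV library was the deeper of the pair. Its values implied about 841751 reads against 112202 for PAR, so that 1 read was worth 1.19 and 8.91 normalised hits (hits per 1000000 reads of that library). Mean coverage of the 47S pre-rRNA was 357 normalised hits with UV and 24.4 with PAR. At least 82834 UV reads and 1001 PAR reads were needed to produce these profiles; these least reads are the observations behind the intervals given for segments, windows and fragments. UV reads covered 11175 nt (81.1%) and PAR reads 6129 nt (44.5%). Counted from 3 reads in each library these were 9741 and 3048 nt, and at or above the value of 1 PAR read the UV library covered 8260 nt. Intervals are 95% intervals, exact (Clopper-Pearson) for shares and on the log scale for ratios unless another is named. They cover counting error only, because no molecular identifiers are described and reads amplified by PCR may be copies of one molecule. Coverage was concentrated in a small part of the 47S pre-rRNA in both modes: 390 nt held 50% of the UV coverage and 424 nt held 50% of the PAR coverage.

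The stretches on which the profiles turned are printed here. They are 6 fragments of 18S that begin at the steepest rises of coverage or end past its 3′ end, and 1 run in the 5′ ETS, all singled out after their values were seen. Differences in their shares between the modes may thus be partly fixed by the choice, which their intervals do not cover. Positions are those of the deposited 47S sequence, counted from 1 at its start and read on the RNA strand, and numbers within a segment are counted from 1 at its first nucleotide. The location in a genome build was not analysed here. Each sequence runs 5′ to 3′ in the letters of the deposited files, and capitals mark every T, the base that 4-thiouridine can replace.
18S 1 to 43 (47S 3657 to 3699), the mature 5′ end: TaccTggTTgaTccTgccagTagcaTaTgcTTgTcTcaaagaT
18S 363 to 400 (47S 4019 to 4056): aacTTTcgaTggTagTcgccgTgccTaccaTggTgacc
18S 825 to 865 (47S 4481 to 4521), the UV summit: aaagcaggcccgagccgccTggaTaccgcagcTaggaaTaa
18S 1027 to 1069 (47S 4683 to 4725): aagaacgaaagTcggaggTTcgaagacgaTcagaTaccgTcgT
18S 1133 to 1173 (47S 4789 to 4829): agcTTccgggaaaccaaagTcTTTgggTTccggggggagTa
18S 1834 to ITS1 7 (47S 5490 to 5532), across the mature 3′ end: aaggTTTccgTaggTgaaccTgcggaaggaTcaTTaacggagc
5′ ETS 416 to 463: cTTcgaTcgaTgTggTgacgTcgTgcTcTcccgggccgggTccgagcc

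Protein-coding RNA was the largest class recovered with the bare tag, and it was larger in PAR. It took 46.3% of the class hits with UV and 64.1% with PAR, a ratio of 1.38 (1.38 to 1.39). Transfer RNA, which carries amino acids to the ribosome, took 2.31% and 3.67%, 1.59-fold more with PAR (1.54 to 1.64). The class named others took 6.01% and 6.57% (ratio 1.09, 1.07 to 1.12). These 3 classes were higher in PAR and the remaining 6 were lower. Mitochondrial RNA was among the lower 6, together with rRNA and small nuclear RNA, so the directions did not separate mitochondrial from other RNA.

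Ribosomal RNA was the class most reduced in PAR. It took 13.2% of the hits with UV and 1.84% with PAR, 7.19-fold less (6.89 to 7.51). Mitochondrial RNA, transcribed inside the organelle from its own genome, took 4.44% with UV and 0.662% with PAR, 6.71-fold less (6.24 to 7.22). Small nuclear RNA of the spliceosome took 2.43% and 1.11%, 2.18-fold less (2.06 to 2.31). Small nucleolar RNA, whose members guide the modification of rRNA, took 0.218% and 0.108%, 2.02-fold less (1.68 to 2.43), and its PAR share rested on about 121 reads. MicroRNA, the short regulatory RNA loaded on Argonaute proteins, was the second largest class in both libraries, with 17.6% and 14.8% (1.19-fold less in PAR, 1.18 to 1.21). Long non-coding RNA was nearly level, with 7.42% and 7.13% (ratio 0.960, 0.939 to 0.982). Shares of one total depend on each other. With rRNA left out of the total the log2 ratio of the class named others turned from 0.13 to -0.049. With the largest other class left out, those of long non-coding RNA and microRNA turned to 0.52 and 0.33, and dividing by the median ratio of the classes turned long non-coding RNA to 0.20. The sources used here do not say if PAR scores were restricted to reads carrying a T change, which bears on each PAR share.

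**Figure D1:**
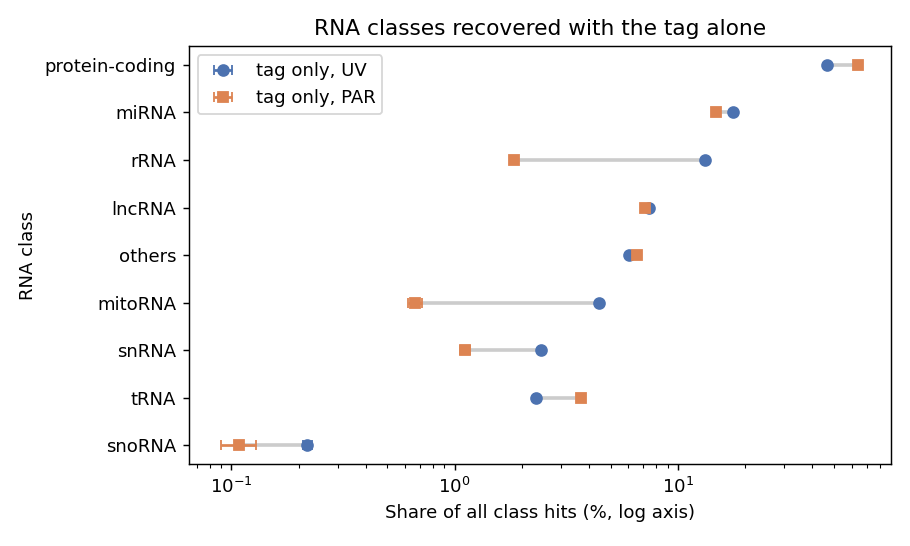
Share of class hits (percent, log axis) of the 9 RNA classes with the tag alone after UV (circles) and PAR (squares), with 95% counting intervals and 1 library per point; grey bars join the modes. The gap is widest for rRNA (13.2% against 1.84%) and mitochondrial RNA (4.44% against 0.662%), and protein-coding RNA is the highest point in both.

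Within the 47S pre-rRNA, 18S dominated the background of both modes and spacer sequence had a larger share in PAR. 18S, which is 13.6% of the length, held 82.2% of the UV coverage and 68.3% of the PAR coverage, 1.20-fold less in PAR (1.15 to 1.26). The larger 28S held 13.2% and 19.3%, a ratio of 1.46 (1.28 to 1.66). The share of 5.8S, the small rRNA that pairs with 28S, was 1.23% and 0.927%, and the interval of its ratio of 0.756 ran from 0.397 to 1.44, so no difference was detectable at a depth of 12 least PAR reads. All spacers together held 3.30% and 11.5%, 3.47-fold more in PAR (2.91 to 4.14).

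Each covered spacer had a larger share of the 47S coverage in PAR. The 5′ ETS held 2.72% and 8.28% (3.05-fold, 2.47 to 3.76). ITS1, between 18S and 5.8S, held 0.262% and 2.0% (7.63-fold, 4.85 to 12). Its log2 ratio of 2.93 was 4.0 with the segment borders moved inward by 20 nt and 1.31 as a share of least reads. ITS2, between 5.8S and 28S, held 0.326% and 1.19% (3.65-fold, 2.05 to 6.50, from 16 least PAR reads). No hit lay in the 3′ ETS in either library, which allows a share of up to 0.00362% with UV and 0.300% with PAR, the latter set by 3 of 1001 reads.

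These shares describe the make-up of a smaller rRNA signal in PAR, not more spacer reads per library. Scaled to all reads of a library, the log2 ratio of the spacers was -2.07, that of the 5′ ETS -2.26, ITS1 -0.93, ITS2 -2.0 and 28S -3.32. Mean coverage of 18S was 2161 normalised hits with UV and 123 with PAR, 17.6-fold apart. For 28S it was 128 and 12.8, 10.0-fold apart. Spacer coverage averaged 24.3 and 5.78, 4.2-fold apart, and ITS1 was the nearest pair at 11.7 and 6.14. Every segment that had hits was thus lower in PAR in normalised hits, and mature rRNA was lower by more than spacer sequence. Summed coverage per hit of the rRNA class was 37.1 nt with UV and 18.3 nt with PAR, so the class totals and the 47S coverage did not scale alike, and the part of this in the ratios was not tested.

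**Figure D2:**
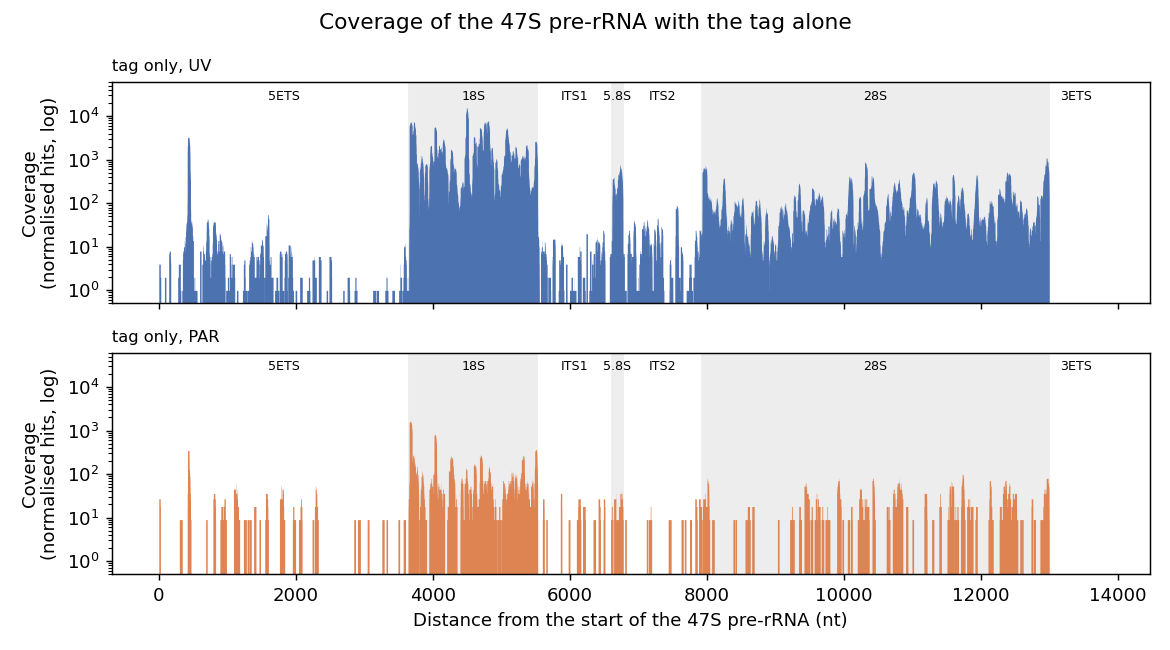
Coverage along the 47S pre-rRNA of the tag-only libraries (normalised hits, log scale, against position in nt), with the 7 segments named and every other one shaded. Both profiles are highest over 18S, and the PAR profile lies lower and covers 44.5% of the nucleotides against 81.1% with UV.

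The 5′ end of 18S was the sharpest feature shared by the modes, and it was the leading one in PAR. Coverage stepped from 56 normalised hits at the last 5′ ETS nucleotide to 5643 at the first of 18S with UV, and from 62 to 1488 with PAR. That 1 position held 5.68% of all rises of coverage with UV and 16.0% with PAR (13.8 to 18.4). The fragment 18S 1 to 43 had a mean coverage of 6812 and 1491 and took 5.96% of the 47S coverage with UV and 19% with PAR, 3.19-fold more in PAR (2.80 to 3.64). The 10 nt before the 5′ end had 0.349% of the coverage of the 10 nt after it with UV and 3.02% with PAR. In the border sequence below, capitals mark 18S, and the step falls at the first capital.
18S 5′ border (47S 3637 to 3676): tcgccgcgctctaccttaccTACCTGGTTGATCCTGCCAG

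At the 3′ end of 18S coverage did not stop at the mature end in either mode, but 7 to 8 nt past it. It was 1259 with UV and 152 with PAR at the last 18S nucleotide, and 1197 and 143 at the first of ITS1. At ITS1 nucleotide 7 the values were 505 and 45, at nucleotide 8 they were 86 and 9, and at nucleotide 9 they were 42 and 0. In PAR 17 reads covered the last 18S nucleotide. With 1 PAR read worth 8.91 normalised hits, the values of 45 and 9 rest on few reads. Set against the value at the last 18S nucleotide, coverage at nucleotide 7 was 40.1% with UV and 29.6% with PAR, and at nucleotide 8 it was 6.83% and 5.92%. The fragment that ends there, 18S 1834 to ITS1 7, took 1.89% of the UV coverage and 3.73% of the PAR coverage, 1.97-fold more in PAR (1.43 to 2.71). NKRF UV coverage stepped down at the same place, from 610 at nucleotide 7 to 239 at nucleotide 8. In the border sequence capitals mark 18S, and the fall of coverage comes after the first 7 lower-case letters.
18S 3′ border (47S 5506 to 5545): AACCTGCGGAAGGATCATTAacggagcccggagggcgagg

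**Figure D3:**
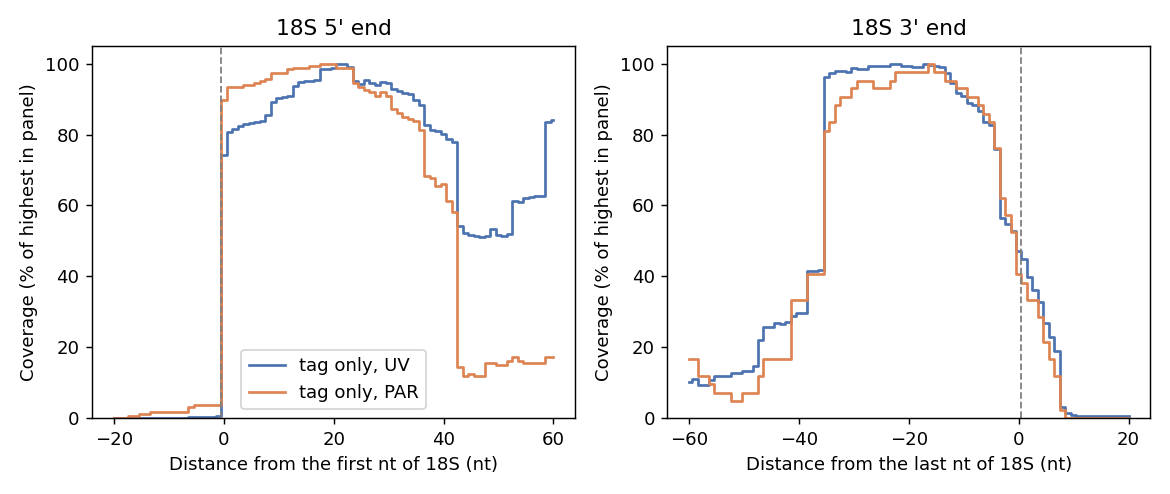
Coverage of the tag-only libraries, as a percent of each library's highest value in the panel, against distance in nt from the first (left) and the last (right) nucleotide of 18S, with the mature ends dashed. Both libraries step up at the first nucleotide, from 56 to 5643 with UV and from 62 to 1488 with PAR, and both drop between nucleotides 7 and 8 past the last one.

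The other mature ends were thinly covered in PAR. Coverage in the 10 nt outside the 5′ end of 5.8S was 21.6% of that in the 10 nt inside with UV and 167% with PAR. Outside the 3′ end of 5.8S it was 3.16% and 20.8%, and outside the 5′ end of 28S 6.56% and 50%. The PAR values there rest on 1 or 2 reads at the border and give no order. Both libraries had 0 in the 10 nt beyond the 3′ end of 28S.

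Internal 18S fragments diverged between the modes, but they were picked from rises of coverage in these same libraries. The start of 18S 825 to 865 was the largest UV rise, so a lower PAR share there is partly fixed by the choice. The UV summit, 15755 normalised hits at position 4497, lay in the fragment 18S 825 to 865. That fragment held 10.7% of the UV coverage and 1.13% of the PAR coverage, with mean coverage of 12857 and 92.7. Its share was 9.51-fold lower in PAR (5.32 to 17.0). The fragment 18S 1133 to 1173 held 5.82% and 1.28%, 4.56-fold lower in PAR (2.64 to 7.87). In the opposite direction, 18S 363 to 400 held 4.12% and 8.16%, 1.98-fold higher in PAR (1.61 to 2.45). The share of 18S 1027 to 1069 was 4.07% and 3.13%, and its ratio of 0.767 had an interval from 0.543 to 1.09, so the direction was not settled by counting alone. T made up 32.6% of the fragment at the 5′ end, 26.3% of 18S 363 to 400, 22% of 18S 1133 to 1173, 20.9% of the fragment across the 3′ end, 16.3% of 18S 1027 to 1069 and 9.76% of the UV summit fragment. The fragments with the most and the fewest T were those with the highest and the lowest ratio of PAR to UV, but between them 18S 1133 to 1173 had the second lowest ratio with the third highest T content.

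Outside 18S, 1 run in the 5′ ETS stood far above its surroundings. The run from 416 to 463 held 2.37% of the 47S coverage with UV and 2.91% with PAR, and its ratio of 1.23 had an interval from 0.856 to 1.76. It accounted for 87.3% of the UV coverage of the 5′ ETS and 35.2% of the PAR coverage. UV coverage stepped from 132 at position 415 to 1532 at position 416, whereas PAR coverage was 0 and 18 there. The main PAR rise came 5 nt later, at position 421, with 2.91% of all PAR rises against 0.875% of all UV rises. The 7 printed stretches came to 297 nt, or 2.16% of the 47S length. They held 35.0% of the tag-only UV coverage and 39.4% of the PAR coverage. With NKRF they held 19.2% (UV) and 1.81% (PAR), but they were picked where tag-only coverage is steep, so a higher tag-only share is partly fixed by the choice. The 5′ ETS run alone held 2.37% with the tag and 2.35% with NKRF after UV, but 2.91% with the tag and 0.706% with NKRF after PAR.

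**Figure D4:**
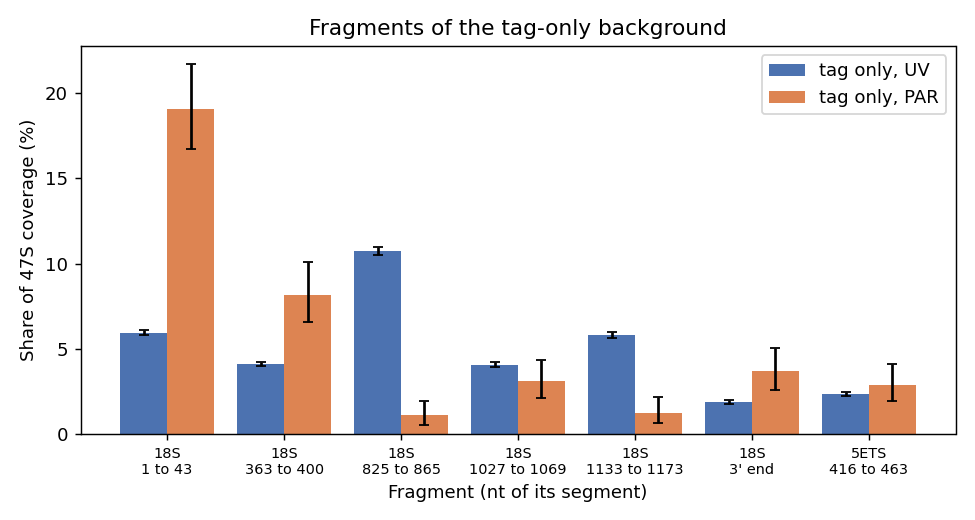
Share of 47S coverage (percent) of the 6 fragments of 18S and the 5′ ETS run in the tag-only libraries; bars are 1 library each, with 95% counting intervals from the least reads. PAR is above UV at 18S 1 to 43 (19% against 5.96%) and below it at 18S 825 to 865 (1.13% against 10.7%).

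Windows of 100 nt gave the same comparison without regard to fragment ends. Of 138 windows, 80 had a mean of at least 20 normalised hits in either library and were examined. A window was called when the modes differed at least 2-fold in its share of 47S coverage, after 1 normalised hit was added to each mean as a pseudocount. That hit is a larger part of the PAR mean coverage (24.4) than of the UV mean coverage (357). It raises the PAR to UV ratio wherever a window's PAR mean is below its UV mean. The calls took 55.0% of the examined windows: 25 (31.2%) were higher in PAR and 19 (23.8%) lower. The interval, here from an exact binomial split of least reads, lay above 1 for 20 of the 25 higher windows and below 1 for 10 of the 19 lower ones. Of the higher windows 13 had fewer than 10 PAR reads. In 6 of the lower ones PAR had no read, so no interval could be given for them. The split turned on scale and pseudocount: scaled to all reads, 1 window was higher and 75 were lower, and with a pseudocount of 10 normalised hits 43 were higher and 6 lower. A pseudocount in proportion to mean coverage, chosen after seeing the data, gave 24 higher and 24 lower. The windows nearest the threshold were 5501 to 5600 (log2 ratio 1.0) on the inside and 9201 to 9300 (0.88) on the outside.

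By the segment of the middle nucleotide, the calls lay one way in the 5′ ETS and both ways in the rRNAs. In the 5′ ETS 5 of 6 examined windows were higher in PAR and none was lower; the 5 were 701 to 800, 801 to 900, 1101 to 1200, 1501 to 1600 and 3601 to 3700, the last of which holds the start of 18S. The interval lay above 1 for 4 of these 5 (701 to 800 ran from 0.812 to 6.27), and 3 of the 5 had fewer than 10 PAR reads. Window 1101 to 1200 passed the minimum through PAR alone, and with the minimum required in both libraries 401 to 500 and 3601 to 3700 would remain. In 18S 2 of 18 were higher and 8 lower, and the interval of each of these 10 lay away from 1. In 28S 16 of 50 were higher and 10 lower, with intervals away from 1 for 13 and 2. Of these 10 lower windows 5 had no PAR read and so no interval. All 10 lower windows of 28S passed the minimum through UV alone, with PAR means from 0 to 5.4. With the minimum required in both libraries none of these 10 would remain. Over all segments that requirement left 14 higher and 7 lower windows. Neither of the 5.8S windows was called. Spearman's rho between the UV and PAR means was 0.707 over the 80 windows, 0.393 over those of 18S and 0.386 over those of 28S. These correlations run across positions of 1 library against another and describe them only.

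The highest windows of both libraries lay in 18S. UV coverage was highest at 4701 to 4800, with a mean of 5375 against 106 with PAR, followed by 4401 to 4500 (3390 and 70.7), 3701 to 3800 (3368 and 153), 4501 to 4600 (3180 and 49.7) and 3601 to 3700 (2974 and 649.9). PAR coverage was highest at 3601 to 3700, followed by 4001 to 4100 (2924 and 315), 3701 to 3800, 4201 to 4300 (883 and 142) and 5301 to 5400 (1480 and 125). The libraries thus shared 2 of their top 5 windows, both at the 5′ end of 18S. Window 4201 to 4300 was 2.34-fold higher in PAR (1.64 to 3.24). The highest windows of the other segments were 5501 to 5600 for ITS1 (649 and 88.2, most of it from 18S), 6701 to 6800 for 5.8S (389 and 19) and 12901 to 13000 for 28S (645 and 48.1). In ITS2 UV was highest at 7501 to 7600 (35.7, with no PAR read) and PAR at 7801 to 7900 (12.4 with UV and 13.3 with PAR).

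Among windows with at least 10 reads in the higher library, the largest PAR excess was at 1101 to 1200 of the 5′ ETS. Its means were 0.5 with UV and 24.8 with PAR, from 4 and 10 reads, and several of the PAR reads share a start. The 28S window 9901 to 10000 had nearly equal means, 32.8 and 34.3, and so a share 15.2-fold higher in PAR (7.08 to 29.3). Next came 11701 to 11800 (127 and 37.5, 4.31-fold) and 10801 to 10900 (137 and 31.2, 3.32-fold), both in 28S. In the other direction, the 28S windows 8201 to 8300, 8701 to 8800 and 9101 to 9200 had UV means of 171, 85.2 and 61.8 and no PAR read. The 28S window 11001 to 11100 had 242 with UV and 1.89 with PAR, from 1 PAR read. Window 4101 to 4200 of 18S had 1903 and 29.0, a share 4.51-fold lower in PAR (2.58 to 8.73). Of 8 examined windows without a PAR read, 8201 to 8300 alone had a UV share of the least reads (0.454%) above the 0.300% that 0 of the 1001 PAR reads allows, at least 1.51-fold lower in PAR.

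**Figure D5:**
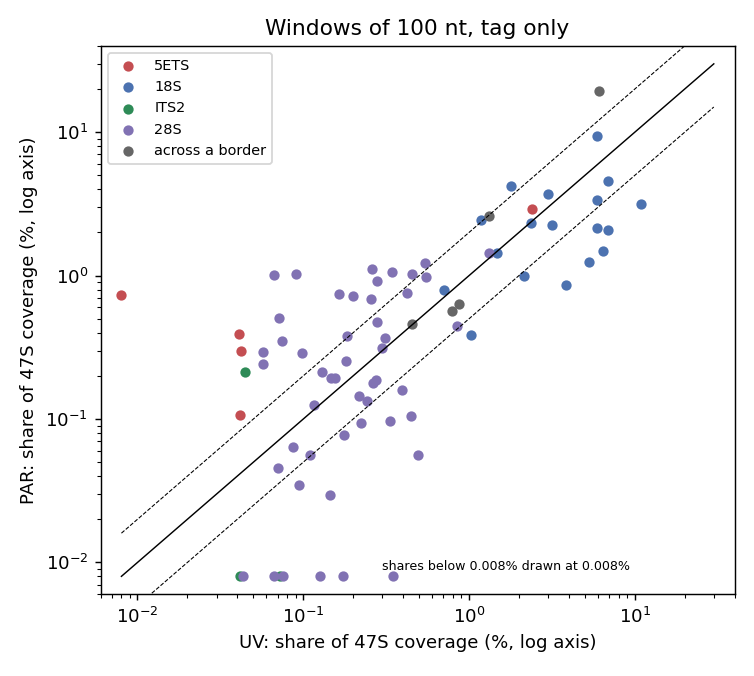
Share of 47S coverage (percent, log axes, no pseudocount) of each of the 80 examined windows with UV (x axis) and PAR (y axis), coloured by segment, with equality drawn solid and 2-fold differences dashed. Windows of 18S lie at the upper right and most of 28S at lower shares; shares too low for the axes, among them the 8 windows with no PAR read, are drawn at its edge.

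Away from the 18S borders and the 416 to 463 run, coverage of the 5′ ETS and ITS1 was low. Downstream of the run and over most of ITS1 the libraries were close in normalised hits. Over 5′ ETS positions 501 to 3600 the mean was 4.29 normalised hits with UV and 5.28 with PAR, from 320 and 56 least reads. UV reads covered 1915 of these 3100 nt and PAR reads 930. The stretch made up 9.95% of the 5′ ETS coverage with UV and 58.6% with PAR. Upstream of the run, positions 1 to 415 were further apart, with means of 4.87 with UV and 2.43 with PAR over 206 and 67 covered nt. In ITS1 the first 8 nt, where the 18S fragment runs on, held 46.8% of the UV coverage and 10.3% of the PAR coverage. The other 1087 nt of ITS1 had means of 6.29 and 5.55, from 319 and 23 least reads. ITS2 was further apart, at 13.9 and 3.47, and 18S was 17.6-fold apart. The share of the 5′ ETS among spacer coverage alone was slightly lower in PAR (log2 ratio -0.19), while that of ITS1 was 1.14 and that of ITS2 0.07.

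PAR reads reached 343 nt that the deeper UV library left at 0, in 20 stretches, 13 of them in the 5′ ETS. None could lie in mature rRNA, where UV reads covered all 7096 nt. UV reads covered 61.9% of the 5′ ETS, 75.3% of ITS1 and 85.9% of ITS2, so the 5′ ETS left most room for such stretches. Of the 20, 15 rested on a single read, and all 20 were covered in the NKRF UV library. That library covered 99.2% of the 5′ ETS and 100% of ITS1 and ITS2, so the count sets the stretches little apart. The deepest were 1110 to 1134, with 62 normalised hits or 7 PAR reads, and 2302 to 2330, with 36 or 4 reads. PAR coverage around the first rose from 0 to 45 at position 1092 and from 36 to 62 at position 1127. Several of its reads thus share a start and may be copies of one molecule. G and C make up 84.0% and 89.7% of these stretches and 79.2% of the 5′ ETS as a whole. They are printed because they had the most PAR reads among stretches without a UV read. Capitals mark T.
5′ ETS 1110 to 1134: gccggccgccgaggggcTgccgTTc
5′ ETS 2302 to 2330: gcaccgccTcgTggggcgccgccgccggc
PAR coverage formed 92 separate islands along the 47S pre-rRNA, from 21 to 542 nt with a median of 39 nt, and 35 were single reads. All 92 held at least 1 T, as do 98.9% of all 47S stretches of 39 nt and 93.4% of those of 21 nt, so the count sets them little apart. Whether this coverage includes reads without a T change is not given in the sources used here either.

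Over the whole 47S pre-rRNA T took more of the coverage than of the sequence in both libraries, and more in PAR, but the segments differed. T makes up 15.4% of the 47S nucleotides and took 19.1% of the UV coverage and 23.6% of the PAR coverage. Within 18S, where T is 21.5% of the nucleotides, it took 19.3% of the UV coverage and 25.5% of the PAR coverage, on either side of the composition. Within 28S (14.9% T) it took 17.2% and 19.5%. The 5′ ETS (15.1% T) went the other way, with 25.2% and 21.1%, and in 5.8S (22.9% T) both libraries lay below the composition, at 21.6% and 21.3%. Positions 10 nt or more from any T are 8.03% of the 47S nucleotides and held 2.27% of the UV coverage and 1.22% of the PAR coverage. Within the 5′ ETS such positions held 0.431% and 2.84%. Single stretches weigh on these values. The 416 to 463 run (22.9% T) was 87.3% of the 5′ ETS coverage with UV and 35.2% with PAR. The fragment 18S 1 to 43 (32.6% T) was 7.25% and 27.9% of the 18S coverage. The part of these stretches in the T shares was not tested. Counting each covered nucleotide once, the T shares were 15.9% and 18.8%, with UV close to the 15.4% of the sequence.

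Deletions in cDNA, which reverse transcriptase can leave where a base stays linked to a peptide, were read in the UV library. They made up 0.163% of the coverage at all bases and 0.323% at T. Of 6888 positions with at least 20 reads, 21 had 10% or more deleted, 8 of them at T, 9 at G, 4 at C and none at A. With at least 50 reads 9 positions remained, 5 at T, 4 at G and none at C. From 20 reads 2 lay in 18S and 19 in 28S, and from 50 reads 2 and 7. The examined positions were not counted by base or segment, so these counts give no rates. The 2 in 18S were the T at 18S 366 (10.5% deleted, 9.68 to 11.5), inside the printed fragment 363 to 400, and the G at 18S 970 (19.5%, 17.8 to 21.2). With NKRF UV the same positions had 5.55% and 6.54% deleted. The best covered of the deleted 28S positions were T at 3993 (11.2%), 4351 (19.1%) and 4555 (25.5%), with 4.85%, 21.6% and 8.58% in NKRF UV. The sequence around the most deleted of these 5, with T in capitals, places it in a T-rich stretch.
28S around T 4555 (47S 12467 to 12507): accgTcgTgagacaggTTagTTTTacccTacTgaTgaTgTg
Substitutions took 5.10% of the coverage at A and 2.10% at all bases, and 14 positions had 30% or more, or 5 with at least 50 reads. The best covered were A at 18S 643 (41.3%) and A at 18S 594 (81.0%), which had 31.8% and 67.8% in NKRF UV. Deletions and substitutions of the PAR library were not analysed here.

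The change from UV to PAR was set beside that of the NKRF libraries, which share no library with the tag-only pair. Ribosomal RNA was lower in PAR with NKRF as well, with a PAR to UV ratio of 0.399 against 0.139 for the tag, 2.87-fold less with the tag (2.74 to 3.0). Mitochondrial RNA had 0.274 with NKRF and 0.149 with the tag. Small nucleolar RNA differed the other way, with 0.258 and 0.495, and small nuclear RNA was close, with 0.501 and 0.459. Protein-coding RNA had 1.27 and 1.38, transfer RNA 1.86 and 1.59, and the class named others 1.76 and 1.09. Of all classes and segments with hits, 18S had the widest contrast: its share of 47S coverage had a PAR to UV ratio of 0.0996 with NKRF and 0.831 with the tag, 8.34-fold apart (7.74 to 9.0). For 28S the ratios were 1.07 and 1.46 (1.36-fold apart, 1.20 to 1.55). For the spacers together they were 3.93 with NKRF and 3.47 with the tag, and the interval of their quotient of 0.882 ran from 0.739 to 1.05. The single spacers parted in both directions: the tag ratio divided by the NKRF ratio was 0.492 for the 5′ ETS (0.398 to 0.608), 1.73 for ITS1 (1.10 to 2.74) and 2.89 for ITS2 (1.62 to 5.16). The intervals of these quotients cover counting error in 4 libraries and not the spread between cultures.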

How the data were processed

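The 4 libraries form 4 groups of 1, and the tag-only pair was compared with no test across samples. The submitters' processing notes name Bowtie2 2.2.4 as a tool; genome build, filters and duplicate handling: not given in the sources used here. The authors deposited a score for each of 9 RNA classes; summing to 1000409 (UV) and 1000504 (PAR), it was read as hits per 1000000 reads. The deposited signal is coverage of each 47S nucleotide. In the tag-only PAR table the header is shifted, and coverage was read from the column headed as substitutions. The value of 1 read came from the spacing of low coverage values: 95.2% of low UV values and 100% of low PAR values lay within 0.5 of whole reads, whereas 84.2% and 11.0% of any whole values would. Class scores were whole multiples of that value in 6 of 9 classes with UV and 0 of 9 with PAR, so class intervals assume the same read total. The NKRF UV value was set to 1 normalised hit, an upper bound. Least reads are the sum of rises of coverage divided by the value of 1 read. A count of 0 was given a limit of 3 reads. Recovery of the value of 1 read, the least reads and the window calls were run on simulated profiles, and the fragment values were not. Windows named are the 5 highest per library and the 5 largest ratios each way with at least 10 reads; positions are the 5 best covered with 10% or more deleted; fragments were chosen afterwards. Members and lists were chosen with earlier results of these data known. Python 3.11.15, numpy 2.4.6, pandas 2.3.3 and scipy 1.17.1 were used. Other totals, scalings, windows, pseudocounts and coverage minimums were tried.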

Additional observations from a re-analysis of the deposited data

Results flagged for a closer look

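In 2 RNA classes the PAR to UV ratio of the class share lay on opposite sides of 1 with the tag and with NKRF. Long non-coding RNA had 0.960 with the tag and 1.38 with NKRF. MicroRNA had 0.838 with the tag and 1.60 with NKRF. Each side is a single pair of libraries, so the difference was not tested across samples. The tag-only directions also turned in other totals, as given for the processing. The NKRF ratios were not recomputed with other totals. There rRNA took 35.7% of the class hits with UV and 14.2% with PAR, which bears on the share of every other class.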

How the results depend on the processing

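No paired analysis was possible because each group has 1 library, and no replicate could be left out for the same reason. Of 103 values recomputed, 38 stayed within their error or 1.5 times their count, 55 moved further and 10 changed sign. The 47S profile of the PAR library rests on at least 1001 reads, which limits every window and segment result. All log2 values here are PAR over UV. Protein-coding RNA (0.47) was 0.29 without rRNA in the total, 0.42 without the largest other class and 0.72 over the median ratio, and rRNA (-2.85) was -2.26 and -2.59 under the last 2. The class named others was -0.049 without rRNA, long non-coding RNA 0.52 and 0.20, and microRNA 0.33, under the totals named above. 18S (-0.27) was -0.34 with borders moved inward by 20 nt, -0.40 without the highest windows, -4.13 scaled to all reads, -0.34 in least reads and -0.14 among mature coverage. Scaled to all reads, the 5′ ETS was -2.26, ITS1 -0.93, ITS2 -2.0, 28S -3.32 and the spacers -2.07, and the 5′ ETS was -0.19 among spacer coverage. The spacers (1.80) were 1.44 in least reads. Windows higher and lower in PAR (25 and 19) were 43 and 6 with a pseudocount of 10, 14 and 7 with a minimum in both libraries, 47 and 43 in windows of 50 nt, 11 and 6 in windows of 200 nt, 12 and 7 at 4-fold, and 1 and 75 scaled to all reads. A minimum of 50 gave 13 higher and 16 lower, and the median window ratio gave 23 and 19. A pseudocount in proportion to mean coverage, chosen after seeing the data, gave 24 and 24. The T share with UV (19.1%) was 18.4% without the highest windows and 15.9% with each covered nucleotide counted once; with PAR (23.6%) the latter was 18.8%. Nucleotides covered in both libraries (5786) were 2935 from 3 reads in each. Causes of these moves were not tested.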
